A study of Mus musculus with 6 samples.

Results

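Glycolysis and the tricarboxylic acid (TCA) cycle were examined through 46 genes in muscle stem cells (MuSCs) of resolvin D1-treated (RvD1-treated) and vehicle-treated mice. The genes were taken by symbol from the 49671 genes quantified by RNA-Seq. They comprise 2 glucose transporters, 10 genes of upper glycolysis, 7 of lower glycolysis, 2 lactate dehydrogenases, 4 subunits of the pyruvate dehydrogenase complex, 4 pyruvate dehydrogenase kinases, and 17 genes of the TCA cycle. RvD1 is a lipid mediator made from docosahexaenoic acid that acts in the resolution of inflammation, and the comparison asked what daily RvD1 does to MuSC gene expression after injury. All mice were female C57BL/6 aged 4 to 6 months, had no genetic modification described, and received 50 μL of 1.2% BaCl2, which destroys myofibers, in both TA muscles. One group of 3 mice received 100 ng RvD1 daily by IP injection for 72 hours, and the other group of 3 received 0.1% ethanol as vehicle. At day 3 postinjury the 2 TA muscles of each mouse were pooled, and FACS took the cells that carried both CXCR4 and β1-integrin but none of CD45, CD11b, Sca-1, or Ter119, giving 1 library per mouse.

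Glycolysis splits glucose into pyruvate in the cytosol and yields ATP without oxygen. Pyruvate is either reduced to lactate by lactate dehydrogenase or carried into mitochondria, where the pyruvate dehydrogenase complex turns it into acetyl-CoA for the TCA cycle. Pyruvate dehydrogenase kinases switch that complex off by phosphorylation. MuSCs are known to take up more glucose and to use more glycolysis when they leave quiescence and divide, and oxidative metabolism gains weight as they differentiate. The hypoxia-inducible factors are known activators of many glycolytic genes and of Pdk1.

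Expected counts totaled 16148026 to 28149176 per library. On the CPM scale (counts scaled to a common library total), 3 counts corresponded to 0.107 to 0.186. Myogenic markers were abundant. Myod1, a transcription factor of committed myoblasts, was at 239 to 470 TPM (transcript abundance scaled for length), and Myog, which drives differentiation, at 818 to 1378 TPM. Pax7, a marker of MuSCs, was at 4.03 to 8.5 TPM. The 8 MuSC markers summed to 1539 to 1851 TPM, 8 of differentiating myocytes to 1695 to 2823 TPM, and 11 of mature myofibers to 1156 to 2024 TPM, with overlapping groups in each. Endothelial markers (6 genes) summed to 6.95 to 20.6 TPM, erythroid markers (5 genes) to 11.4 to 95.6 TPM, and glial markers (3 genes) to 10.3 to 32.9 TPM. The summed level of 13 leukocyte markers was 47.1 to 69.8 TPM with RvD1 and 64.9 to 109 TPM with vehicle. All 12 of these markers that could be tested had a lower fitted level with RvD1, beside 46.5% of all genes tested. Of the 12, 4 had an unadjusted p under 0.05 in edgeR, beside 1.64% of all genes in that direction. At an adjusted p under 0.05 there were 0. The defining marker Ptprc (CD45) was at 0.080 to 1.13 TPM over the 6 libraries. RvD1 replicate 1 stood apart. Its 6 fibro-adipogenic markers summed to 1894 TPM, against 866 to 1121 TPM in the other libraries, with Dcn, Lum, Col3a1, and Gsn highest in this library, and its 8 proliferation markers to 1392 TPM, against 1771 to 1979 TPM. The defining fibro-adipogenic markers did not stand out there, with Pdgfra at 3.48 TPM against 1.57 to 3.55 TPM and Ly6a (Sca-1, selected against in the sort) at 25.4 TPM against 17.3 to 39.7 TPM. Ly6a was at 25.4, 22.4, and 17.3 TPM with RvD1 and 39.7, 26.3, and 30.3 TPM with vehicle, which did not overlap (log2 fold change −0.62, SE 0.20, edgeR unadjusted p = 0.0141, adjusted p = 0.971). In this library 31 of the 46 genes had their lowest level, so several of the results below are also given without it. The part of these other cells in the results below was not tested. In sorted bulk RNA, fewer cells of a type and less RNA per cell cannot be told apart.

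Levels between genes were compared in TPM, which is scaled for transcript length. The 46 genes together held 19632, 23502, and 25071 TPM in the RvD1 libraries (replicates 1, 2, and 3, the order used throughout) and 22330, 24268, and 22881 TPM in the vehicle libraries. The groups overlapped, with RvD1 replicate 1 lowest and RvD1 replicate 3 highest. As a share of counts this was 1.96% to 2.52% with RvD1 and 2.31% to 2.54% with vehicle.

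Enzymes of lower glycolysis and Ldha were the most abundant. Averaged over the 6 libraries, Eno1, an enolase, was at 2768 TPM, Ldha, the lactate-forming subunit of lactate dehydrogenase, at 2547 TPM, Pkm, which encodes muscle pyruvate kinase, at 1960 TPM, and Gapdh at 1845 TPM. Of the ubiquitous glycolytic enzymes, Aldoa was at 1613 TPM, Pgam1 at 797 TPM, Tpi1 at 747 TPM, Pgk1 at 741 TPM, and Gpi1 at 391.6 TPM. The muscle enolase Eno3 was at 1206 TPM and the muscle phosphoglycerate mutase Pgam2 at 43.9 TPM. Genes at the entry to the pathway were far lower. The basal glucose transporter Slc2a1 (GLUT1) was at 57.5 TPM and the insulin-responsive Slc2a4 (GLUT4) at 2.84 TPM. Hexokinase Hk1 was at 51.0 TPM and the inducible Hk2 at 9.66 TPM. Of the phosphofructokinases, which catalyze the committed step, the platelet form Pfkp was at 91.8 TPM, the liver form Pfkl at 51.9 TPM, and the muscle form Pfkm at 12.4 TPM. Pfkfb3, which makes the phosphofructokinase activator fructose-2,6-bisphosphate, was at 3.23 TPM, and Aldoc, the brain aldolase, was lowest of the 46 at 0.713 TPM with a mean of 10 counts per library.

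Mitochondrial genes of the set spanned a narrower range. Malate dehydrogenase Mdh2 led with 1053 TPM, and the succinate dehydrogenase subunits Sdhd, Sdhb, Sdha, and Sdhc were at 782, 605, 398, and 260 TPM. The isocitrate dehydrogenases Idh2, Idh3a, Idh3g, and Idh3b were at 591, 536, 338, and 300.2 TPM. Citrate synthase Cs was at 387 TPM and the cytosolic malate dehydrogenase Mdh1 at 309 TPM. The 2-oxoglutarate dehydrogenase subunits Dlst and Ogdh were at 227 and 175 TPM, fumarate hydratase Fh1 at 169 TPM, and the succinyl-CoA ligase subunits Suclg1, Sucla2, and Suclg2 at 303, 210, and 72.2 TPM. In the pyruvate dehydrogenase complex, Pdhb was at 371 TPM, Pdha1 at 249 TPM, Dld at 223 TPM, and Dlat at 205 TPM. The inhibitory kinases Pdk4, Pdk3, Pdk2, and Pdk1 were at 53.5, 46.03, 12.2, and 5.24 TPM, and Ldhb, the other lactate dehydrogenase subunit, was at 129 TPM.

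**Figure D1:**
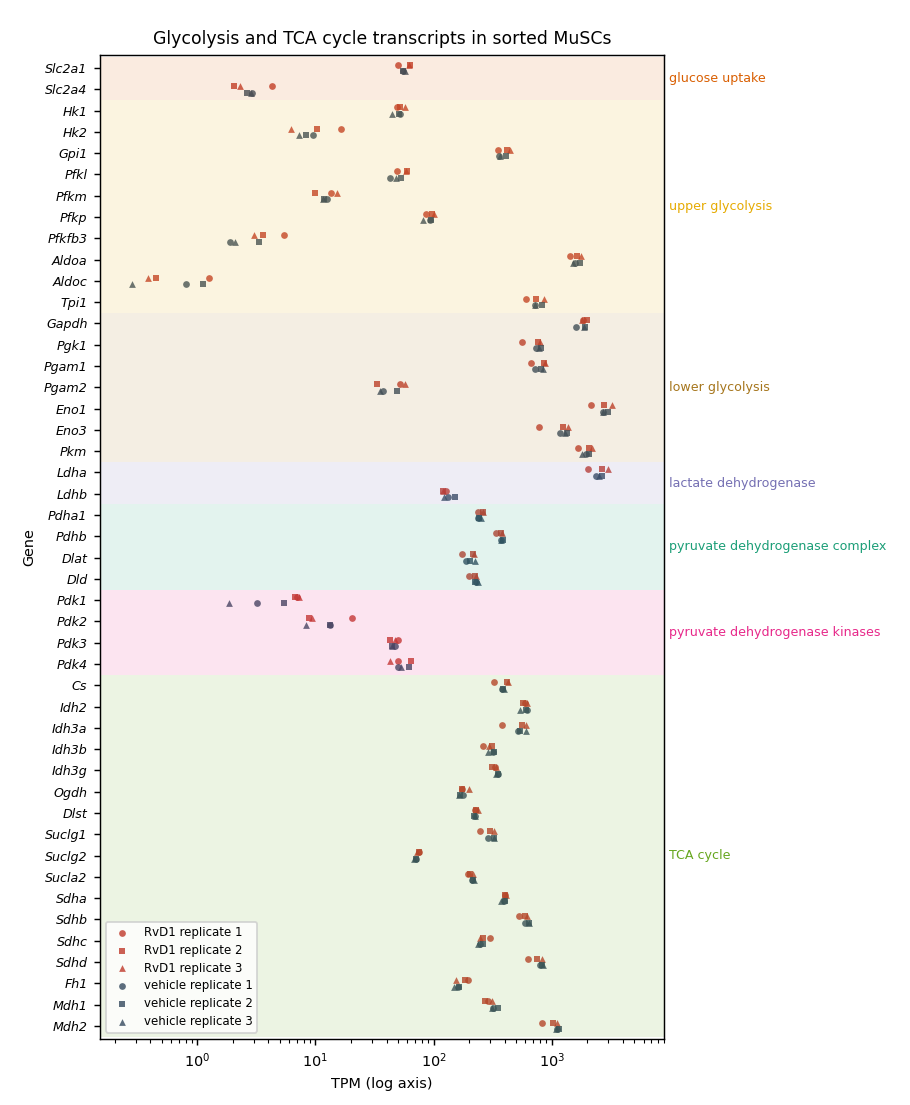
Level of each of the 46 genes in TPM on a log axis, with 1 symbol per library (red for RvD1, dark blue for vehicle) and background shading for the step of the pathway. Means run from 0.713 TPM for Aldoc to 2768 TPM for Eno1, and for most genes the symbols of both groups lie among each other.

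All 46 genes passed the count filter and were tested among 14494 genes. None passed an adjusted p of 0.05 in the edgeR quasi-likelihood test, and 0% of all genes tested did. The smallest adjusted p was 0.971 among the 46 genes and also among all genes. At an unadjusted p under 0.05 stood 3 of the 46 genes, Pfkfb3 and Pdk1 with higher and Mdh1 with lower counts in RvD1-treated mice, beside 3.47% of all genes (1.83% higher and 1.64% lower). DESeq2 and limma-voom without surrogate variables also called 0 genes, with 474 and 482 of 14494 genes at an unadjusted p under 0.05. RvD1 and vehicle libraries did not overlap in CPM for 8 of the 46 genes, 2 higher with RvD1 (Pfkfb3 and Pdk1) and 6 lower (Dld, Idh3b, Idh3g, Sdhb, Mdh1, and Mdh2), beside 9.62% of all genes (4.80% higher and 4.83% lower).

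The differences were small. The 95% interval of the log2 fold change lay within 1 of 0 for 43 of the 46 genes and within 0.5 of 0 for 34. The exceptions to the wider limit were Aldoc, Pfkfb3, and Pdk1, with a largest bound of 1.29. The fitted fold change was below 0 for 36 of the 46 genes, 78.3%, beside 46.5% of all genes tested and 64.5% of the 2456 genes at 100 CPM or more. Without RvD1 replicate 1 it was below 0 for 27 of the 46 genes. On the log2(TPM + 1) scale it was below 0 for 20 of the 46, with the median of all genes shifted to 0.08. The median over the 46 genes was −0.06 in the edgeR fit and 0.01 over all genes tested.

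**Figure D2:**
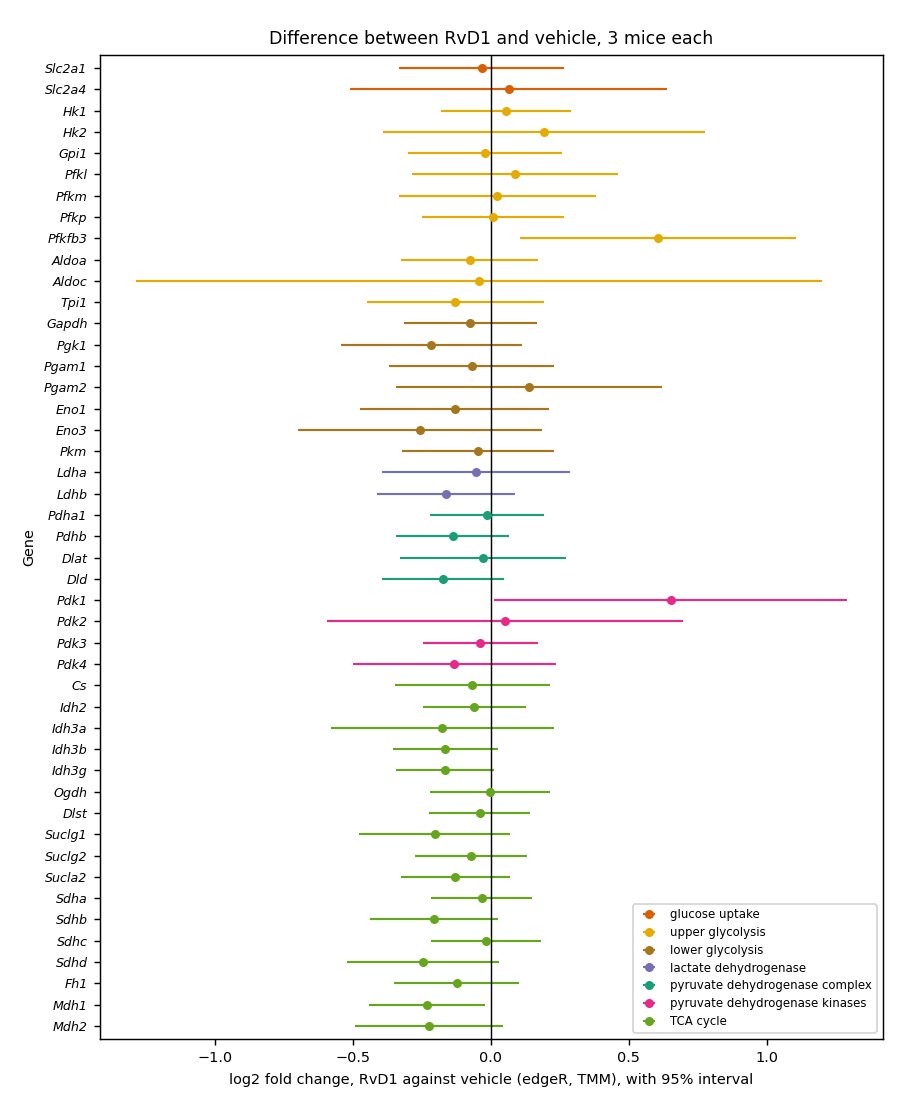
Log2 fold change of each gene, RvD1 against vehicle, from edgeR with TMM scaling, as points with their 95% intervals and colored by step of the pathway. The intervals of Pfkfb3, Pdk1, and Mdh1 leave out 0 before adjustment, and all 17 TCA cycle points lie left of 0, which became 14 of 17 without RvD1 replicate 1 or with scaling to the library total alone, and 9 of 17 on the log2(TPM + 1) scale.

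The promoter windows of the 3 genes at an unadjusted p under 0.05 are shown with the core of the binding motif of hypoxia-inducible factors marked. Pfkfb3 and Pdk1 lay higher with RvD1 and Mdh1 lay lower, and the core was in all 3 windows. Whether these factors act on the 3 genes here was not tested. The windows are from RefSeq on GRCm38.p6 and run from 250 bases before to 50 bases after the transcription start nearest to the gene's 5′ end, 5′ to 3′ on the gene's strand. Capitals mark ACGTG or GCGTG on either strand.
Pfkfb3, chr2:11553880-11554179, minus strand: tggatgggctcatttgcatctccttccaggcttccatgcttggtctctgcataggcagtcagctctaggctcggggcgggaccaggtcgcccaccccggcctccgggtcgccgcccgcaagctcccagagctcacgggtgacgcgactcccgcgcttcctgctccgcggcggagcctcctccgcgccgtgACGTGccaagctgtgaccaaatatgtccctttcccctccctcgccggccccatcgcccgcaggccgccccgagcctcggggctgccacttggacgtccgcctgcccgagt
Pdk1, chr2:71872974-71873273, plus strand: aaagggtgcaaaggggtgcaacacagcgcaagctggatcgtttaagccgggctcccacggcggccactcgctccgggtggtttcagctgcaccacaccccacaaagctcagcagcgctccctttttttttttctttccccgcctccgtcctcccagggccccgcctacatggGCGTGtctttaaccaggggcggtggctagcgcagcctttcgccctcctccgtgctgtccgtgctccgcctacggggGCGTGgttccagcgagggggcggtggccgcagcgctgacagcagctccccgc
Mdh1, chr11:21571885-21572184, minus strand: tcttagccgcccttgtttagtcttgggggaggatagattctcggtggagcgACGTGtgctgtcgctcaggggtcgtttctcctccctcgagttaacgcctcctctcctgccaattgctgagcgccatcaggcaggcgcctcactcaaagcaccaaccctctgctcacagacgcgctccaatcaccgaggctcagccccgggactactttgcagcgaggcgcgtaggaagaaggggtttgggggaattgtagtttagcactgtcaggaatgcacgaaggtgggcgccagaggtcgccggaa
The core began at position −60 from the start in Pfkfb3, at −78 and −2 in Pdk1, and at −199 in Mdh1. RefSeq windows were matched for 43 of the 46 genes, and 46 of their 62 windows (74.2%) held the core, beside 43.8% of all 32851 windows. The 62 windows count several starts of some genes, and by gene 33 of the 43 had the core. All windows were taken whether or not the gene was detected in these cells, and base composition was not matched. The difference between these shares was not tested. The E-box CACGTG, which contains ACGTG and is bound by Myc family factors, was in 11.3% of the windows of these genes and 7.15% of all windows. AAGGTCA, a motif of estrogen-related receptors, was in 6.45% and 4.72%. Neither was in the 3 windows printed.

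Of upper glycolysis, 6 of 10 genes had a fitted fold change above 0 and 4 below, with a median of 0.02. Pfkfb3 is the isoform of the bifunctional enzyme with the strongest kinase activity and is known to be induced by hypoxia and inflammatory signals. It was at 6.79, 7.06, and 5.88 CPM with RvD1 and at 3.78, 5.29, and 3.91 CPM with vehicle. Every RvD1 library was above every vehicle library, although at 61 to 198 counts per library. The mean was 6.58 ± 0.62 CPM (SD, n = 3) with RvD1 and 4.33 ± 0.84 CPM (SD, n = 3) with vehicle. The log2 fold change was 0.61 (SE 0.22, 95% interval 0.10 to 1.11), with an unadjusted p = 0.0231 and a Benjamini-Hochberg adjusted p = 0.971 in the edgeR quasi-likelihood test. In TPM the groups overlapped for Pfkfb3, since RvD1 replicate 3 was at 3.02 TPM and vehicle replicate 2 at 3.34 TPM.

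Hk2, the inducible hexokinase of muscle, was at 21.7, 16.3, and 10.5 CPM with RvD1 and 16.8, 14.02, and 11.7 CPM with vehicle. The RvD1 libraries held both the highest and the lowest level. The log2 fold change was 0.19 (SE 0.26, edgeR unadjusted p = 0.473) and −0.07 without RvD1 replicate 1. Hk1, Pfkl, Pfkm, and Pfkp, which with Hk2 catalyze both ATP-consuming steps, had log2 fold changes of 0.06, 0.09, 0.02, and 0.01. Gpi1, Aldoa, Aldoc, and Tpi1, which act on the hexose and triose phosphates, had values of −0.02, −0.08, −0.04, and −0.13. None of these 9 genes had an unadjusted p under 0.05, and the groups overlapped for each. The glucose transporters were as close, with log2 fold changes of −0.03 for Slc2a1 and 0.06 for Slc2a4.

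Of lower glycolysis, 6 of 7 genes had a fitted fold change below 0, which became 3 of 7 without RvD1 replicate 1 and also on the log2(TPM + 1) scale. In 6 of the 7 genes RvD1 replicate 1 was the lowest library, and the median deviation of the 7 genes from their means in this library was −0.32 on the log2 CPM scale. Eno3, the enolase of differentiated muscle, shows the pattern. It was at 632, 1058, and 1117 CPM with RvD1 and at 993, 1207, and 1154 CPM with vehicle. RvD1 replicates 2 and 3 lay within the vehicle range, and RvD1 replicate 1 lay far below it. The log2 fold changes ranged from −0.26 for Eno3 to 0.14 for Pgam2 and were −0.22 for Pgk1, −0.13 for Eno1, −0.07 for Gapdh and Pgam1, and −0.05 for Pkm.

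Pgam2, the muscle phosphoglycerate mutase, was at 23.3, 15.8, and 26.4 CPM with RvD1 and 17.8, 24.1, and 17.4 CPM with vehicle. The groups overlapped, and the log2 fold change of 0.14 (SE 0.21, edgeR unadjusted p = 0.535) became −0.02 without RvD1 replicate 3. The 11 markers of mature myofibers summed to 1474, 1156, and 2024 TPM with RvD1 and 1303, 1667, and 1336 TPM with vehicle, with the same 3 libraries highest as for Pgam2, and their part in its level was not tested. Both lactate dehydrogenases were lower on average with RvD1 in CPM, by log2 fold changes of −0.05 for Ldha and −0.16 for Ldhb, and their intervals included 0. Ldha was at 1799, 2536, and 2700 CPM with RvD1 and 2216, 2622, and 2466 CPM with vehicle, so that RvD1 libraries were again lowest and highest.

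Isozyme use was compared as the share of a family's summed TPM within each library. Eno3 made up 26.8%, 30.8%, and 30.02% of the enolases Eno1 and Eno3 with RvD1 and 30.2%, 31.1%, and 32.2% with vehicle. Hk2 made up 24.9%, 16.3%, and 9.77% of Hk1 and Hk2 with RvD1 and 15.5%, 14.1%, and 14.2% with vehicle, with RvD1 libraries at both ends. Pfkp supplied 58.8% and Pfkl 33.2% of the phosphofructokinases over all libraries, and Pfkm 7.93% ± 1.67 with RvD1 and 7.995% ± 0.53 with vehicle (SD, n = 3 each). Ldhb made up 4.67% ± 1.09 and 5.12% ± 0.39 of the lactate dehydrogenases, and Pgam2 5.67% ± 1.77 and 4.85% ± 0.83 of the phosphoglycerate mutases. Slc2a4 made up 4.85% ± 2.64 and 4.74% ± 0.21 of both transporters, and Aldoc 0.046% ± 0.037 and 0.044% ± 0.024 of both aldolases. Sucla2, the ATP-forming succinyl-CoA ligase subunit, made up 73.4% ± 1.48 and 75.3% ± 0.76 of Suclg2 and Sucla2, and Pdk4 44.0% ± 7.41 and 47.4% ± 3.05 of the kinases. In the exact permutation test (two-sided) the 9 shares had p from 0.2 to 1, with a Benjamini-Hochberg adjusted p = 1 for each. The smallest possible p was 0.1, so no share could have passed 0.05 and the test could not decide.

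At the entry of pyruvate into mitochondria, the 4 subunits of the pyruvate dehydrogenase complex had log2 fold changes of −0.01 for Pdha1, −0.03 for Dlat, −0.14 for Pdhb, and −0.17 for Dld. Dld, the dihydrolipoamide dehydrogenase shared with the 2-oxoglutarate dehydrogenase complex, was at 282, 338, and 330 CPM with RvD1 and 343, 353, and 376 CPM with vehicle. These groups did not overlap, but their ranges nearly met, and the groups overlapped in TPM.

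Pdk1, a pyruvate dehydrogenase kinase known as a target of hypoxia-inducible factors, was at 15.5, 13.9, and 14.5 CPM with RvD1 and at 8.42, 13.8, and 5.76 CPM with vehicle. The RvD1 libraries lay close together, whereas vehicle replicate 2 nearly reached them. The mean was 14.6 ± 0.82 CPM (SD, n = 3) with RvD1 and 9.32 ± 4.09 CPM (SD, n = 3) with vehicle. The log2 fold change was 0.65 (SE 0.28, 95% interval 0.01 to 1.29), with an unadjusted p = 0.0469 and an adjusted p = 0.971 in the same edgeR test. It was 1.05 without vehicle replicate 2 and 0.40 without vehicle replicate 3. In TPM, Pdk1 was at 6.99, 6.67, and 7.32 with RvD1 and 3.22, 5.39, and 1.87 with vehicle, so that the groups stayed apart on this scale. Pdk1 supplied 5.94% ± 0.81 of the summed TPM of the 4 kinases with RvD1 and 2.97% ± 1.29 with vehicle (SD, n = 3). The more abundant kinases Pdk2, Pdk3, and Pdk4 had log2 fold changes of 0.05, −0.04, and −0.13, and their groups overlapped. Pdk4, which is known to respond to fasting, was at 98.1, 134, and 87.7 CPM with RvD1 and 105, 132, and 114 CPM with vehicle.

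Of the TCA cycle, all 17 genes had a fitted fold change below 0 in CPM, with a median of −0.13 beside 0.01 for all genes tested, and 1 of them (Mdh1) had an unadjusted p under 0.05. All 17 lie among the genes at 100 CPM or more, of which 64.5% were below 0 with a median of −0.04. The count below 0 was 14 of 17 without RvD1 replicate 1, with a median of −0.05, and 14 of 17 with scaling to the library total alone. It was 12 of 17 with a median of −0.08 in the limma-voom fit of the study with 1 surrogate variable. On the log2(TPM + 1) scale it was 9 of 17, with a median of −0.06 beside 0.08 for all genes. Relative to the median of all genes, the TCA cycle median was −0.14 both in CPM and in TPM and −0.05 without RvD1 replicate 1.

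Mdh1, which works in the malate-aspartate shuttle that brings cytosolic reducing equivalents into mitochondria, was at 251, 276, and 292 CPM with RvD1 and at 301, 334, and 325 CPM with vehicle. No RvD1 library reached the lowest vehicle library, and the same held in TPM. The mean was 273 ± 20.8 CPM with RvD1 and 320.3 ± 17.2 CPM with vehicle (SD, n = 3 each). The log2 fold change was −0.23 (SE 0.09, 95% interval −0.44 to −0.02, edgeR unadjusted p = 0.0347, adjusted p = 0.971). Without RvD1 replicate 1, the lowest library for Mdh1, the log2 fold change was −0.17 (SE 0.08, edgeR unadjusted p = 0.0541). Mdh2, the mitochondrial malate dehydrogenase, was at 593, 765, and 789 CPM with RvD1 and 806, 881, and 823 CPM with vehicle. Its groups did not overlap either in CPM, although RvD1 replicate 3 came close to vehicle replicate 1 and the groups overlapped in TPM.

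Idh3g, a regulatory subunit of the NAD-dependent isocitrate dehydrogenase, varied little among the RvD1 libraries. It was at 236, 236, and 238 CPM with RvD1 and 262, 275, and 260.3 CPM with vehicle. All RvD1 libraries were below all vehicle libraries, and the log2 fold change was −0.17 (SE 0.08, edgeR unadjusted p = 0.0609). Idh3b, the other regulatory subunit, also did not overlap, at 201 to 222 CPM against 229 to 246 CPM, whereas the catalytic subunit Idh3a did, at 407 to 663 CPM against 576 to 716 CPM. In TPM the groups overlapped for each of the 3 subunits. The mitochondrial NADP-dependent enzyme Idh2 had a log2 fold change of −0.06 and Cs of −0.07.

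Succinate dehydrogenase joins the TCA cycle to the respiratory chain. Sdhb, the iron-sulfur subunit, was at 331, 395, and 394 CPM with RvD1 and 396, 448, and 448 CPM with vehicle, so that RvD1 replicate 2 nearly met vehicle replicate 1. Its log2 fold change was −0.21 (SE 0.10, edgeR unadjusted p = 0.0765) and −0.13 without RvD1 replicate 1. Sdhd, a membrane anchor, was at 428, 546, and 573 CPM with RvD1 and 567, 626, and 641 CPM with vehicle, with RvD1 replicate 3 inside the vehicle range. Its log2 fold change was −0.25 (SE 0.12, edgeR unadjusted p = 0.0725) and −0.13 without RvD1 replicate 1. The flavoprotein Sdha and the other anchor Sdhc had values of −0.03 and −0.02. Differences between subunits were not tested.

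The remaining TCA cycle genes had log2 fold changes of −0.20 for Suclg1, −0.18 for Idh3a, −0.13 for Sucla2, −0.12 for Fh1, −0.07 for Suclg2, −0.04 for Dlst, and −0.0025 for Ogdh. Each of these had overlapping groups in CPM. For Suclg2 the groups did not overlap in TPM, in the opposite direction, at 71.7 to 75.9 TPM with RvD1 and 68.4 to 71.4 TPM with vehicle. Of the 46 genes, 17 had opposite directions in the group means of TPM and CPM. The median difference between the log2 ratios on these scales was 0.08.

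**Figure D3:**
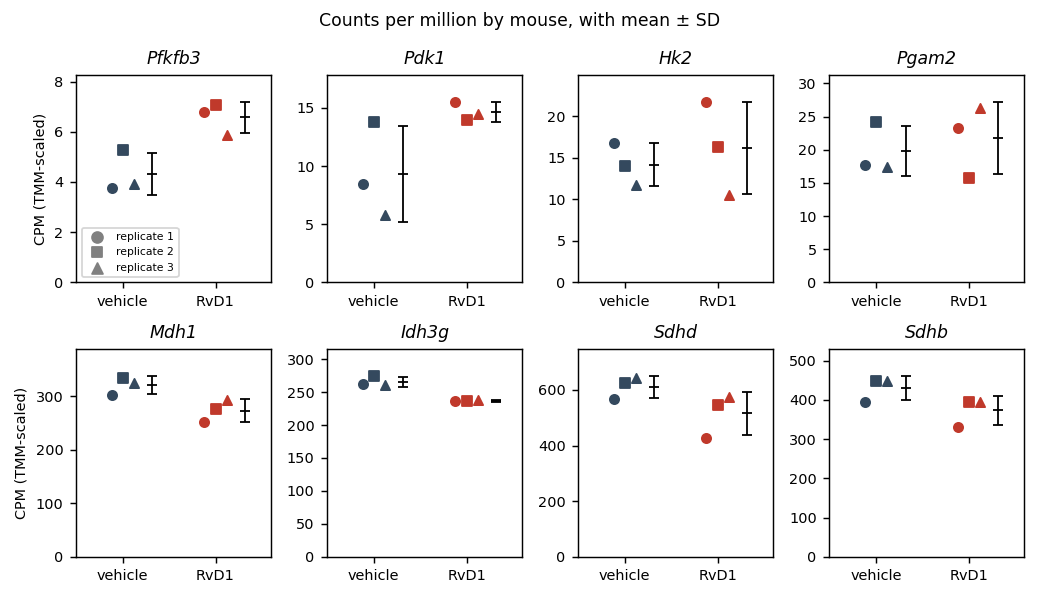
TMM-scaled CPM of 8 genes, those of smallest unadjusted p among the higher (4) and the lower (4), with 1 symbol per mouse and, beside each group, the mean ± SD (n = 3). Pfkfb3, Pdk1, Mdh1, Idh3g, and Sdhb have groups that do not overlap in CPM, whereas Hk2, Pgam2, and Sdhd have groups that do, and the adjusted p was 0.971 for each.

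The 46 genes also varied between libraries of the same group. The median deviation of the 46 genes from their own means was −0.20, 0.03, and 0.04 on the log2 CPM scale with RvD1 and −0.02, 0.12, and 0.03 with vehicle. RvD1 replicate 1 lay low for every step except glucose uptake, at 0.00, and the pyruvate dehydrogenase kinases, at 0.25. It was the lowest library for 31 of the 46 genes, 29.5% of all genes tested, and 53.6% of genes at 100 CPM or more. Without it the glycolysis median over the 21 genes from transporters to lactate dehydrogenases moved from −0.04 to 0.03. The median over the 25 pyruvate dehydrogenase and TCA cycle genes moved from −0.12 to −0.07. Without vehicle replicate 2, in which the median deviation was highest, the same medians were 0.01 and −0.06. The higher fibro-adipogenic and lower proliferation marker sums of the same library are given above, and their part in these values was not tested.

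**Figure D4:**
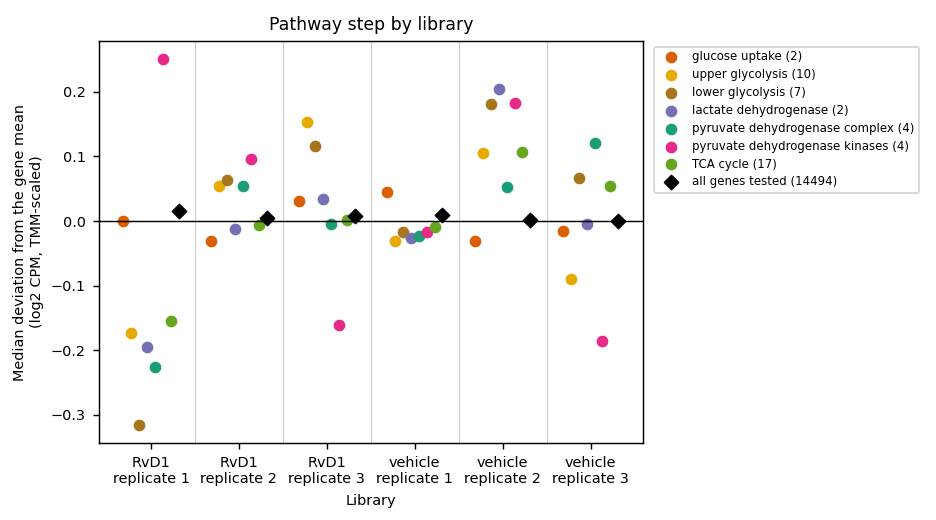
Median deviation of each step's genes from their means over the 6 libraries, in log2 CPM with TMM scaling, by library, with the number of genes per step in the legend and diamonds for all 14494 genes tested. Lower glycolysis lies at −0.32 in RvD1 replicate 1, where the kinases lie at 0.25, and the diamonds lie near 0 in every library.

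The surroundings of the pathway were read from 67 further genes, of which 56 could be tested. None of the 56 had an unadjusted p under 0.05 in the edgeR test or an adjusted p under 0.05, with 34 above and 22 below 0. Of all genes tested, 3.47% had an unadjusted p under 0.05 and 46.5% were below 0. Of 19 genes of transport and glycolysis 12 were above 0, of 20 genes of pyruvate entry and the TCA cycle 9, and of 17 regulators 13. Mpc2, a subunit of the mitochondrial pyruvate carrier, was at 113, 112, and 102 TPM with RvD1 and 118, 130.3, and 118 TPM with vehicle. These groups did not overlap, and the log2 fold change in CPM was −0.22 (SE 0.10, edgeR unadjusted p = 0.0617). Sdhaf3, an assembly factor of succinate dehydrogenase, had a value of −0.27 (SE 0.16, unadjusted p = 0.125 in edgeR). Mycn, a transcription factor of the Myc family, was at 16.5, 13.1, and 11.97 TPM with RvD1 and 12.03, 10.2, and 10.98 TPM with vehicle. Its groups overlapped in TPM but not in CPM, and its log2 fold change in CPM was 0.27 (SE 0.14, edgeR unadjusted p = 0.0955). Txnip, an inhibitor of glucose uptake, had a value of 0.64 (SE 0.38, edgeR unadjusted p = 0.128), and RvD1 replicate 1 alone, at 45.2 TPM, lay above the 14.1 to 20.2 TPM of the other libraries.

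Genes known to be induced by hypoxia that are not among the 46 were read beside Pfkfb3 and Pdk1. Their summed level was 237, 239, and 244 TPM with RvD1 and 193, 208, and 180 TPM with vehicle, which did not overlap. On the log2(TPM + 1) scale the median of all genes tested was itself shifted to 0.08. Gene by gene in CPM, the groups overlapped for every gene of this list except Ndufa4l2. Fitted fold changes were below 0 for 1 of the 9 genes, beside 46.5% of all genes tested, and 2 of the other 8 had an unadjusted p under 0.05, beside 1.83% of all genes in that direction. This list, too, was chosen with earlier results of these data known. Ndufa4l2, a mitochondrial protein induced in low oxygen, was at 8.15, 10.2, and 7.33 TPM with RvD1 and 2.91, 5.14, and 4.33 TPM with vehicle (log2 fold change 1.13, SE 0.28, edgeR unadjusted p = 0.0031, adjusted p = 0.971). Car9, a carbonic anhydrase, had overlapping groups in TPM and a log2 fold change of 0.99 (SE 0.42, edgeR unadjusted p = 0.0446). Many glycolytic genes are also known targets of the hypoxia-inducible factors, as given above. Of the 21 glycolysis genes among the 46, 8 had a fitted fold change above 0 and 13 below, with a median of −0.04. Without RvD1 replicate 1, 13 were above and 8 below. The part of hypoxia in any of these levels was not tested.

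Some of the counts could be shared with other genes. At an identity of at least 95% over 200 bases, 12 of the 46 genes had near-identical copies, 107 in all, and only for Gapdh, with 91 copies, did these hold more than 5% of the summed counts (14.2%). Eno1 followed with 4.77% in 3 copies and Pgk1 with 3.46% in 2. Exons of 12 genes overlapped those of another gene, among them Idh3b with Nop56 (a mean of 5358 counts beside 4450 for Idh3b), Pfkm with Senp1 (1545 counts beside 413), Pfkp with Pitrm1 (4697 beside 3189), and Mdh1 with Wdpcp (161 beside 5868), all on opposite strands. How strand was used in counting is not given in the sources used here. For these genes reads of the partner therefore cannot be told apart. This touches the levels and isozyme shares of Pfkm and Pfkp above. It also touches the levels of Idh3b and Mdh1 and the separation of their groups in CPM. Pfkfb3 and Pdk1 had neither copies nor such an overlap.

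**Figure D5:**
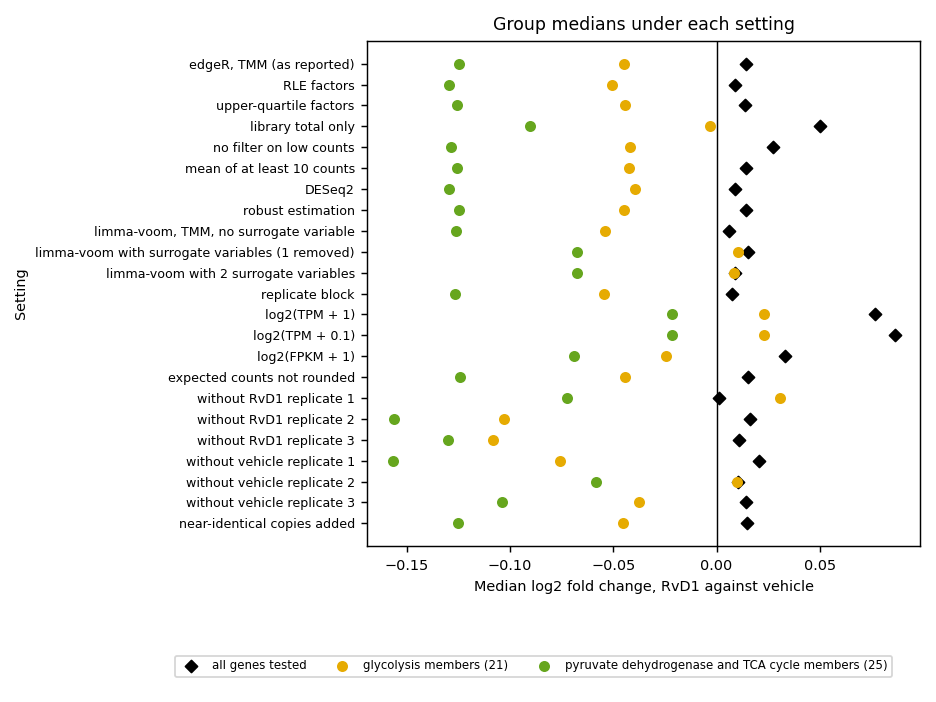
Median log2 fold change of the 21 glycolysis genes, of the 25 pyruvate dehydrogenase and TCA cycle genes, and of all genes tested under each way of processing the data. The pyruvate dehydrogenase and TCA cycle median lies between −0.16 and −0.02 and below the all-gene median under each setting shown. The glycolysis median lies between −0.11 and 0.03, and also below the all-gene median under each setting except without RvD1 replicate 1.

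Over 22 alternatives of scaling, filtering, testing, and leaving out libraries, 16 of the 46 genes kept the direction of their fold change in every one. Of these, Pfkfb3 (0.43 to 0.77) and Pdk1 (0.40 to 1.10) were higher with RvD1. The other 14 were lower and were Pgk1, Eno3, Ldhb, Pdhb, Dld, Pdk4, Idh3b, Idh3g, Suclg1, Sucla2, Sdhb, Sdhd, Mdh1, and Mdh2. The direction of each of the others turned under at least 1 of these settings. Several settings are close variants of 1 fit to the same 6 libraries. The share of all genes that kept their direction was not determined, so the count of 16 has no background beside it.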

How the data were processed

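RNA of sorted MuSCs was measured in 6 libraries, 1 per mouse, grouped by the treatment in the sample labels. The authors prepared SMART-seq v4 and Nextera XT libraries, sequenced 76-bp single-ended reads, aligned them to mm10 with STAR 2.5.0a, and quantified genes with RSEM. The RSEM version and annotation are not given in the sources used here. The deposited expected counts come from RSEM, which divides a read matching several genes among them, and are not scaled for depth. In the deposited TPM and FPKM, the authors accounted for transcript length and library total. Each file held 49671 genes after 1 stray header line was removed, and 22860 had 0 counts in every library.

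Expected counts were rounded and tested with edgeR 4.0.16 in R 4.3.3 (TMM factors, 0.980 to 1.04, filterByExpr by group, quasi-likelihood test, Benjamini-Hochberg over 14494 genes, threshold 0.05). CPM in the text are TMM-scaled. TMM scales by composition, which TPM do not, so directions can differ between them, and TPM also follow the transcript length that RSEM estimated in each library. Standard errors come from the fold change and test statistic. Limma-voom with surrogate variables follows the study's methods, which leave their number open (1 by the be method in sva 3.50.0). DESeq2 1.42.0, limma 3.58.1, and the settings below were alternatives. The tests were run on simulated data with known changes before use. Counting error alone sets the floor of 3 counts, as reads carry no molecular identifiers. Isozyme shares were compared by exact permutation over 20 label assignments.

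Replicate numbers recur in both groups but name different mice, so same-numbered libraries were not treated as pairs. Their deviations correlated at 0.31, −0.00071, and 0.126. The mean was 0.145, beside −0.073 for different-numbered libraries. Deviations were centered within each group, which ties these means to each other. Whether same-numbered libraries shared a processing step is not given in the sources used here. A fit with the replicate number as a block was therefore among the alternatives. Positions, near-identical copies, and exon overlaps were taken from the GRCm38 annotation and its transcripts, and promoters from RefSeq.

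The 46 genes, the further pathway genes, and the marker lists were chosen with earlier results of these data known. Fold changes with their error were given for the 4 higher and 4 lower genes of smallest unadjusted p, since fewer than 8 had an unadjusted p under 0.05, and for the 2 higher and 2 lower further pathway genes by the same measure. Eno3, Ldha, Dld, Mdh2, Idh3b, Pdk4, Ndufa4l2, Car9, and Ly6a were chosen for description after their values were seen.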

Additional observations from a re-analysis of the deposited data

How the results depend on the processing

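With 3 mice per group, the 95% interval reached beyond 0.5 from 0 on the log2 scale for all but 34 of the 46 genes, and depth limits Aldoc most, with a mean of 10 counts per library. Of the values that answer a comparison, 198 of 228 were scored as unchanged under the alternatives. So were 169 of 176 values of the 8 genes described singly. The cause of the others was not tested, except where a setting removes samples or adds genes. Medians were scored by whether their shift stayed within the spread between libraries of a group, and counts by a fixed ratio. Isozyme shares were scored by direction alone, and the 8 genes by direction and adjusted call. An unchanged score therefore does not mean the same size, or for a median the same direction. The glycolysis median went from −0.04 to 0.03 without RvD1 replicate 1 and was scored as unchanged.

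The number of genes called at an adjusted p of 0.05 was 0 and became 12 with no filter on low counts (26641 genes tested). It became 1727 of 26518 genes tested with limma-voom after removal of 2 surrogate variables, whose degrees of freedom that fit does not count. With 1 library left out it was 0 to 1 (1 without RvD1 replicate 3). Of the 46 genes, 0 were called except for 6 after removal of 2 surrogate variables, which were Dld, Idh3g, Mdh1, Pfkfb3, Sdhb, and Sdhd, with log2 fold changes of −0.14 for Idh3g, −0.19 for Mdh1, 0.66 for Pfkfb3, −0.15 for Sdhb, and −0.19 for Sdhd. The number at an unadjusted p under 0.05 was 3. It became 11 with the study's limma-voom and 1 surrogate variable (11.2% of all genes) and 15 with 2 (25.3% of all genes). Neither of these fits counts the degrees of freedom of the variables removed, and the study does not state how many it used. The number became 9 with the replicate block (6.18% of all genes, still 0 called), 1 with log2(TPM + 0.1), and 1 with log2(FPKM + 1). With 1 library left out it was 0 to 4 (1 without RvD1 replicate 2 or vehicle replicate 1, and 0 without vehicle replicate 3).

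The number of the 46 genes higher with RvD1 was 10 and became 16 with the library total alone, 20 and 19 with 1 and 2 surrogate variables removed, 26 with log2(TPM + 1) and with log2(TPM + 0.1), 18 with log2(FPKM + 1), and 6 to 19 with 1 library left out (19 without RvD1 replicate 1, 6 without RvD1 replicate 3). The pyruvate dehydrogenase and TCA cycle median became −0.022 with log2(TPM + 1) and with log2(TPM + 0.1). The replicate block changed no other call.

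With 1 library left out, the log2 fold change ranged from −0.070 to 0.42 for Hk2 and −0.021 to 0.33 for Pgam2. The difference in isozyme share ranged, in percentage points, from −1.54 to 6.03 for Hk2, −0.64 to 0.89 for Pfkm, −0.020 to 0.013 for Aldoc, and −1.41 to 0.9749 for Slc2a4. Without a change of sign it ranged from −7.68 to −0.976 for Pdk4, −2.77 to −0.734 for Eno3, 0.10 to 1.81 for Pgam2, −1.07 to −0.045 for Ldhb, and −2.71 to −1.28 for Sucla2. The value nearest 0 came without RvD1 replicate 1 for Pdk4, Eno3, Pgam2, and Sucla2 and without RvD1 replicate 3 for Ldhb. For Pfkm it was 0.031 with CPM in place of TPM. Adding near-identical copies to the counts turned no direction among the 8 genes.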
